A study of Mus musculus with 12 samples.

Results

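The question addressed here was whether airway macrophages (AMs) from Scnn1b-Tg mice answered lipopolysaccharide (LPS) by another amount than AMs from wild-type (WT) mice. For each pool of cells the change of a gene with LPS was taken as its log2 CPM (counts scaled to the size of the library) in the LPS library minus that in the medium library of the same pool, and the changes of the 3 Scnn1b-Tg pools (17, 18 and 19) were compared with those of the 3 WT pools (16, 17 and 18). This difference of changes is the interaction of genotype and LPS. It is positive where the change was more positive in Scnn1b-Tg cells, whatever the direction of the change. All 12 libraries of the series were used, and no library was left out. The paper describes a WT library with LPS as an outlier in its principal component analysis of gene expression, and its text does not name the pool.

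Scnn1b-Tg mice overexpress Scnn1b, the beta subunit of the epithelial sodium channel, under the club cell secretory protein promoter, so the transgene is driven in airway epithelium, and the animals develop airway mucus obstruction. All mice were on the C57BL/6 background and 6 weeks old, and the controls were WT littermates. The labels state that cells of 3 to 4 animals were pooled. Cells of each pool were kept for 12 h with 100 ng/ml LPS from Pseudomonas aeruginosa or with medium alone, which gave 4 groups of 3 libraries. The labels describe lavage cells that adhered to plastic, but also carry a remark that sorted cells may have been used, and the study's methods for sequencing describe sorting of CD45+ Siglec-F+ CD11c+ cells from digested lung. Which isolation applies to these libraries is not settled by these sources. Libraries belonged to 2 preparation batches. Batch 1 held WT 16, WT 17 and Scnn1b-Tg 17, and batch 2 held WT 18, Scnn1b-Tg 18 and Scnn1b-Tg 19.

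LPS is a component of the outer membrane of Gram-negative bacteria. It is passed by Cd14 to Tlr4, which signals through Myd88 to NF-kB and through Ticam1 to interferon regulatory factors. The first arm induces cytokines, chemokines and its own inhibitors such as Nfkbia, and the second induces interferon beta and, through it, antiviral interferon-stimulated genes. AMs are the resident macrophages of the air spaces, depend on Pparg, and are known for clearing surfactant and inhaled particles. A smaller change with LPS can come from a higher level before stimulation as well as from a lower level after it, and therefore the levels at both ends are given beside each change.

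Libraries held 48.2 to 60.9 M deposited counts. Scnn1b itself had 0 to 40 counts in WT and 4 to 29 counts in Scnn1b-Tg libraries, which did not separate the genotypes. The 16 markers of AMs summed to 15447 to 16092 CPM in medium and 9807 to 11357 CPM in LPS libraries of WT mice. In Scnn1b-Tg they summed to 17886 to 22270 and 10959 to 16032 CPM. Most of each sum was Chil3, at 6668 to 15012 CPM over the 12 libraries. Neutrophil markers summed to 11.8 to 14.9 CPM in medium and 10.1 to 12.3 CPM in LPS libraries of WT mice. In Scnn1b-Tg they summed to 18.98 to 29.3 CPM and 14.3 to 19.7 CPM, with Ngp and S100a9 at the floor of 8 counts in all libraries. Epithelial markers lay the other way, at 105 to 127 and 86.7 to 133 CPM in WT against 51.0 to 98.0 and 42.4 to 72.8 CPM in Scnn1b-Tg. Dendritic cell markers summed to 4.64 to 6.60 CPM in medium and 9.85 to 11.1 CPM in LPS in WT, and to 6.79 to 10.6 and 13.0 to 19.9 CPM in Scnn1b-Tg. Much of this was Ccr7, also a maturation gene, at 1.88 to 2.41 CPM in medium and 6.49 to 6.93 CPM in LPS in WT. In Scnn1b-Tg it was at 4.34 to 6.11 and 9.96 to 15.9 CPM. Batf3 of the same list fell with LPS in every pool. Endothelial markers in medium summed to 69.7 to 81.9 CPM in WT and 85.9 to 98.3 CPM in Scnn1b-Tg. In LPS the genotypes overlapped, at 53.7 to 68.9 CPM in WT and 40.7 to 64.1 CPM in Scnn1b-Tg. Nearly all of the medium sums was Vwf, at 69.5 to 81.7 CPM in WT and 85.7 to 98.0 CPM in Scnn1b-Tg. Monocyte or interstitial macrophage markers in medium summed to 76.6 to 91.8 CPM in WT and 51.2 to 67.8 CPM in Scnn1b-Tg. In LPS they overlapped, at 545 to 597 and 503 to 682 CPM. Most of each sum was Cd14, described below. Fibroblast markers in medium summed to 2.86 to 3.55 CPM in WT and 4.05 to 5.53 CPM in Scnn1b-Tg. In LPS they summed to 6.78 to 9.10 and 9.02 to 12.2 CPM. Eosinophil and erythroid markers were at or near 0. The part of these markers in the results below was not tested, and in such bulk libraries fewer cells of a type cannot be told apart from less RNA per cell.

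No gene passed the test of the difference in LPS response. Of 13729 genes tested by edgeR, 0 (0%) had an adjusted p under 0.05, and the lowest adjusted p was 0.178. At an unadjusted p under 0.05 there were 1307 genes (9.52%), where 686 would be at that level in a test of 13729 genes with no difference. Of these, 684 (4.98%) were positive and 623 (4.54%) negative. The per-pool changes of the genotypes did not overlap in 2219 genes (16.2%), of which 1250 (9.1%) were higher and 969 (7.06%) lower in Scnn1b-Tg. limma with voom weights, limma on the per-pool changes and edgeR without pool terms also called 0 genes. DESeq2 called 167 genes (1.22%), with 102 (0.743%) positive and 65 (0.473%) negative. Values for single genes below are therefore differences that edgeR did not call after adjustment, and they were ordered by its unadjusted p.

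The LPS response itself was large in both genotypes, and its size was larger in each Scnn1b-Tg pool than in each WT pool. LPS changed 5027 genes (36.6%) in WT and 5784 genes (42.1%) in Scnn1b-Tg, a difference in count that was not tested, and the mean effect over both genotypes was called in 7106 genes (51.8%), of which 3494 (25.4%) rose and 3612 (26.3%) fell. Over these 7106 genes, chosen with equal weight for both genotypes, each pool's changes were regressed on the mean change of all pools with a line through the origin. A slope of 1 is the average response, so the slopes of the genotypes are relative to each other. The slopes were 0.923 in WT 16, 0.966 in WT 17 and 0.941 in WT 18, against 1.05 in Scnn1b-Tg 17, 1.04 in Scnn1b-Tg 18 and 1.07 in Scnn1b-Tg 19. All 3 Scnn1b-Tg pools thus lay above all 3 WT pools, with means of 1.06 ± 0.0157 and 0.943 ± 0.0219 (SD, n = 3 each). The response was 12.0% larger in Scnn1b-Tg, and an exact two-sided permutation test over the pools gave p = 0.1, the smallest value that 3 against 3 pools allow. The difference was 0.110 within batch 1 and 0.117 within batch 2. It was 0.0902 over the genes that rose and 0.152 over those that fell, and it depended on the genes taken, with 0.0757 over genes called in WT and 0.146 over genes called in Scnn1b-Tg.

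**Figure D1:**
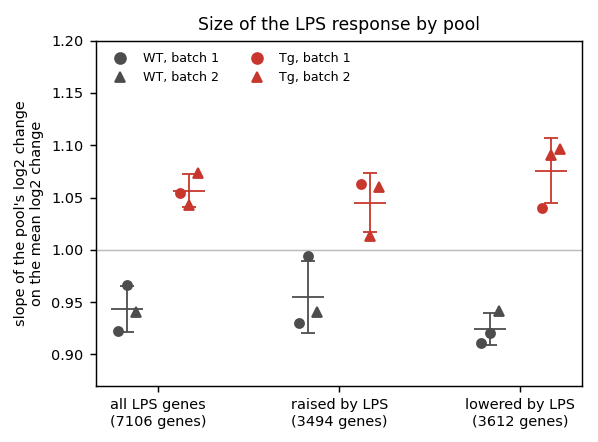
Size of the LPS response in each pool, as the slope of the pool's log2 changes on the mean change of all pools (unitless), over all genes called for LPS and over those raised or lowered. Points are pools, horizontal bars are means and error bars are SD (n = 3), circles are batch 1 and triangles batch 2, and the Scnn1b-Tg pools (red) lie above the WT pools (grey) in each of the 3 gene sets.

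Genes on both sides of the response contributed. Of the 3494 genes raised by LPS, 2435 (69.7%) had a larger rise in Scnn1b-Tg, and of the 3612 genes lowered by LPS, 2278 (63.1%) had a larger fall. At an unadjusted p under 0.05, 511 raised genes (14.6%) had a larger and 95 (2.72%) a smaller rise. Of the lowered genes, 365 (10.1%) had a larger and 56 (1.55%) a smaller fall. Among all genes tested, 9.52% were at that level, 4.98% with a positive and 4.54% with a negative interaction. The larger responses lay mainly at the medium end. The 511 genes with a larger rise had a median Scnn1b-Tg minus WT level of -0.26 log2 CPM in medium and 0.10 in LPS, and 293 of them were lower in every Scnn1b-Tg medium library than in every WT one, while 100 were higher in every LPS library. The backgrounds for these are 9.38% of all genes lower in medium and 5.72% higher in LPS. The 95 genes with a smaller rise stood 0.65 higher in Scnn1b-Tg medium and differed by -0.01 in LPS. The 365 genes with a larger fall had medians of 0.30 in medium and -0.17 in LPS, with 140 higher in every medium library (background 9.02%) and 48 lower in every LPS library (background 3.39%). The change in each pool and the level in its medium library share that library, so these levels describe the difference and are no separate test of it.

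**Figure D2:**
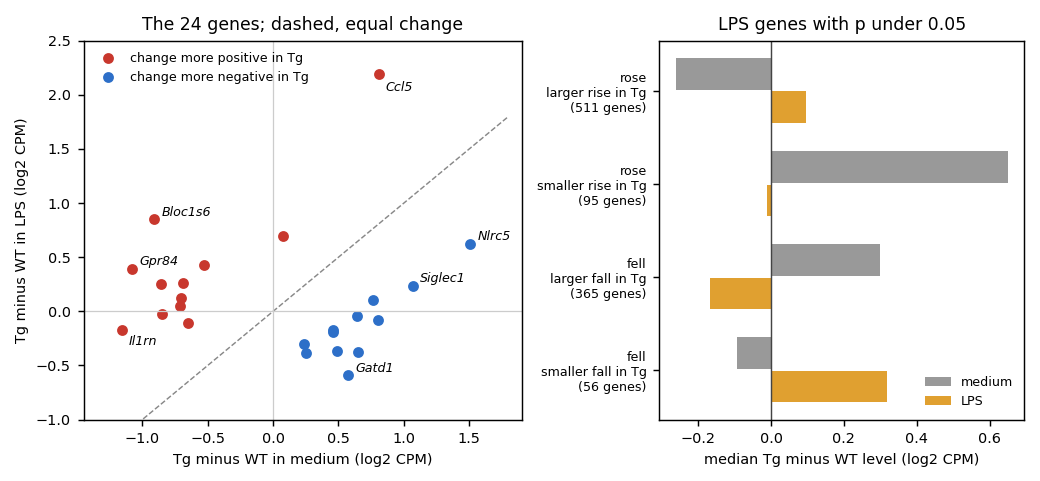
Where the difference in response lay. The left panel plots the Scnn1b-Tg minus WT level in LPS against that in medium (log2 CPM, means of 3 libraries) for 24 genes. These are, per direction, the 12 of lowest unadjusted p among genes with a symbol, at least 5 CPM in a group and no overlap of pools. The dashed line marks an equal change in both genotypes, and Ccl5 lies highest on the LPS axis, at 2.19. The right panel shows the median of the same differences over the LPS genes with an unadjusted p under 0.05, where 511 genes with a larger rise stood at -0.26 in medium and 0.10 in LPS.

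The gene with the lowest p among the positive ones was Ccl5 (ENSMUSG00000035042, chromosome 11, 83525778 to 83530518, minus strand, mm10), a chemokine for T cells and monocytes. Its levels in medium were 1.18, 1.08 and 1.61 CPM in WT 16, 17 and 18 and 1.78, 3.12 and 2.05 CPM in Scnn1b-Tg 17, 18 and 19. In LPS they were 33.8, 38.4 and 43.1 CPM in WT, against 144, 204 and 181 CPM in Scnn1b-Tg. The Scnn1b-Tg libraries were higher under both conditions without overlap, and more so in LPS. The change was 4.87 ± 0.21 in WT and 6.25 ± 0.22 in Scnn1b-Tg (log2, SD, n = 3 each), and the pools did not overlap. The interaction was 1.37 ± 0.16 (SE), with an adjusted p of 0.178 by edgeR and of 3.7e-08 by DESeq2. The difference was 1.36 within batch 1 and 1.51 within batch 2.

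Receptors for formylated peptides, which bacteria release and which draw phagocytes, came next. Fpr1 (ENSMUSG00000045551, chromosome 17, 17876471 to 17883940, minus strand) had 59.6, 41.9 and 57.5 CPM in WT medium, against 27.0, 40.6 and 43.8 CPM in Scnn1b-Tg medium. It reached 792, 715 and 897 CPM in WT LPS and 849, 1102 and 1318 CPM in Scnn1b-Tg LPS. The levels overlapped at both ends, but the changes of 3.93 ± 0.18 for WT, against 4.88 ± 0.11 for Scnn1b-Tg, (log2, SD, n = 3 each) did not. The interaction was 0.95 ± 0.11 (SE) by edgeR with an adjusted p of 0.178. Fpr2, its neighbour, also had an interaction of 0.95 ± 0.13 (SE), with mean changes of 2.82 (WT) and 3.78 (Scnn1b-Tg), and its exons overlap those of Fpr3, so its counts are uncertain in counting without strand.

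Gpr84, a receptor for medium-chain fatty acids on macrophages (ENSMUSG00000063234, chromosome 15, 103308235 to 103310612, minus strand), had 7.13, 6.19 and 5.55 CPM in WT medium, against 2.12, 4.09 and 2.91 CPM in Scnn1b-Tg medium. In LPS it had 84.2, 102 and 100 CPM in WT, against 112, 133 and 130 CPM in Scnn1b-Tg. The Scnn1b-Tg libraries were thus lower before and higher after stimulation, in both cases without overlap. The interaction was 1.48 ± 0.22 (SE), and was 1.91 within batch 1 and 1.07 within batch 2. Il1rn, the secreted antagonist of the interleukin-1 receptor (ENSMUSG00000026981, chromosome 2, 24336853 to 24351494, plus strand), had 80.0, 81.3 and 77.4 CPM in WT medium, against 33.8, 39.7 and 33.7 CPM in Scnn1b-Tg medium. In LPS the genotypes overlapped, at 294, 293 and 258 CPM in WT, against 209, 253 and 294 CPM in Scnn1b-Tg. Its interaction of 0.98 ± 0.14 (SE) was therefore made up of a difference of -1.16 in medium and -0.17 in LPS (log2 CPM).

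The other genes of the 12 chosen on this side included Plpp1, a lipid phosphate phosphatase, at 1.11 ± 0.15 (SE), Procr, the receptor of protein C, at 0.83 ± 0.13, Ehd1, an ATPase of endocytic recycling, at 0.82 ± 0.12, and Tpm4, a tropomyosin, at 0.54 ± 0.08. Cd14, the LPS co-receptor, had 55.5, 49.3 and 67.4 CPM in WT medium against 32.1, 37.3 and 34.9 CPM in Scnn1b-Tg medium. In LPS it had 581, 561 and 584 CPM in WT, against 509, 674 and 611 CPM in Scnn1b-Tg, so the genotypes overlapped after stimulation and not before it. Its interaction was 0.76 ± 0.12 (SE), and was 0.54 within batch 1 and 1.04 within batch 2. Bloc1s6 and Arfip2 are described with the opposite calls. Exons of Plpp1, Tpm4, Gpr84 and Arfip2 overlap those of other genes, so their counts are uncertain. Of the 12 genes, 9 had lower medium levels in Scnn1b-Tg without overlap, as 9.38% of all genes did, but they were chosen on changes that use the same medium libraries.

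**Figure D3:**
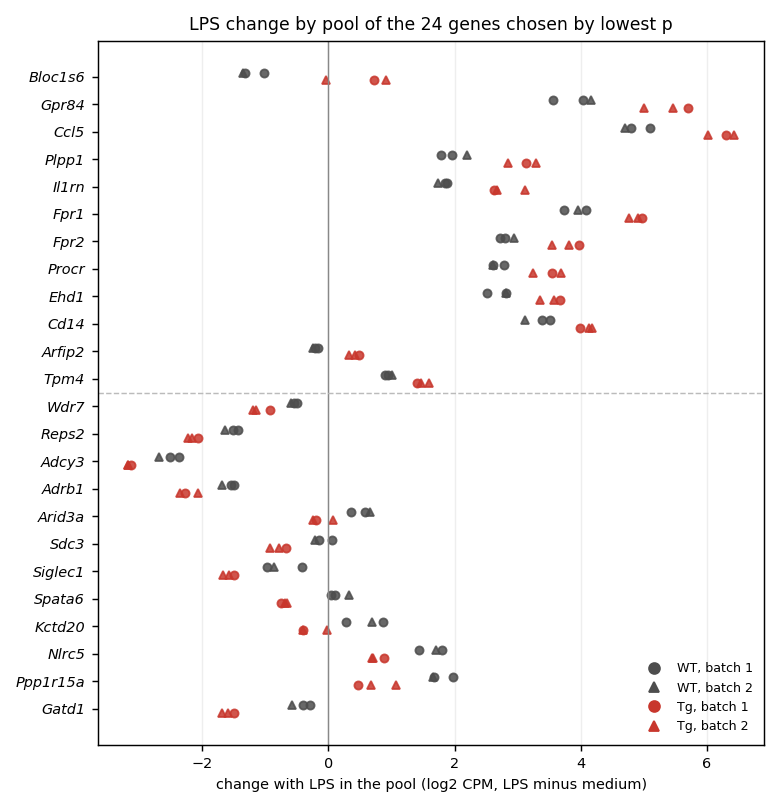
Change with LPS in each pool (log2 CPM, LPS minus medium) of the 12 genes chosen in each direction, the positive ones above the dashed line. They had the lowest p among genes with a symbol, at least 5 CPM in a group and no overlap of pools. Points are pools, grey for WT and red for Scnn1b-Tg, circles for batch 1 and triangles for batch 2, and since the genes had to be free of overlap to be chosen, the absence of overlap is a rule and not a result.

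On the negative side the lowest p belonged to Gatd1 (ENSMUSG00000051007, chromosome 7, 141407794 to 141414136, minus strand). It had 14.2, 24.5 and 30.5 CPM in WT medium, against 10.8, 19.9 and 20.5 CPM in WT LPS. In Scnn1b-Tg it had 30.04, 33.4 and 34.95 CPM in medium and 10.7, 10.4 and 11.6 CPM in LPS. The WT pools varied in level but fell by like amounts, and the fall was larger in each Scnn1b-Tg pool, at -0.42 ± 0.14 against -1.59 ± 0.10 (log2, SD, n = 3 each). The interaction was -1.17 ± 0.12 (SE), with an adjusted p of 0.178 by edgeR and 1.25e-08 by DESeq2. Siglec1, the sialic acid receptor CD169 of macrophages, fell in both genotypes, from 136, 171 and 229 to 68.8, 128 and 126 CPM in WT, against from 380, 320 and 403 to 135, 100 and 134 CPM in Scnn1b-Tg. Its difference of 1.07 in medium (log2 CPM) was 0.24 in LPS. Sdc3, a heparan sulfate proteoglycan, had changes of -0.11 ± 0.15 in the WT pools, which did not pass the test, against -0.80 ± 0.13 in Scnn1b-Tg, which did (log2, SD, n = 3 each), and an interaction of -0.69 ± 0.10 (SE).

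Genes that rose with LPS were also among these 12. Nlrc5, the transactivator of MHC class I genes (ENSMUSG00000074151, chromosome 8, 94434356 to 94527272, plus strand), rose from 3.31, 4.42 and 7.41 to 8.99, 15.5 and 24.2 CPM in WT, against from 12.5, 11.3 and 17.95 to 23.05, 18.3 and 29.2 CPM in Scnn1b-Tg. The rise was 1.64 ± 0.19 in WT and 0.76 ± 0.11 in Scnn1b-Tg (log2, SD, n = 3 each), and the Scnn1b-Tg minus WT level was 1.51 in medium and 0.62 in LPS (log2 CPM). Ppp1r15a, which recruits a phosphatase to eIF2alpha in stressed cells, rose by 1.76 ± 0.18 and 0.73 ± 0.31, with an interaction of -1.03 ± 0.17 (SE). Adcy3, an adenylyl cyclase, and Adrb1, the beta-1 adrenergic receptor, which acts through such cyclases, both fell in both genotypes, with interactions of -0.64 ± 0.10 and -0.65 ± 0.13 (SE). Spata6, Wdr7, Reps2, Arid3a and Kctd20 made up the rest, with interactions between -0.88 and -0.54. Counts of Sdc3, Nlrc5, Adcy3, Ppp1r15a, Wdr7 and Kctd20 are uncertain, because their exons overlap those of other genes and strand was not counted.

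Opposite calls were rare. In 4 genes LPS was called in both genotypes with opposite signs. Bloc1s6, a subunit of the BLOC-1 complex that forms lysosome-related organelles (ENSMUSG00000005804, chromosome 2, 122738503 to 122749475, plus strand), had 39.1, 39.5 and 39.7 CPM in WT medium, against 19.3, 15.8 and 15.5 CPM in WT LPS. In Scnn1b-Tg it had 21.9, 19.3 and 21.7 CPM in medium and 36.1, 18.8 and 41.0 CPM in LPS, and pool 18 did not share the rise of pools 17 and 19. The fall in WT had an adjusted p of 0.0011 and the rise in Scnn1b-Tg one of 0.039, and without Scnn1b-Tg 18 the edgeR interaction passed the test at 2.05 with an adjusted p of 0.0318. Arfip2, which binds Arf and Rac GTPases, changed by -0.21 ± 0.04 in WT and 0.41 ± 0.08 in Scnn1b-Tg, and Fbxo9, an F-box protein, by -0.25 ± 0.06 and 0.18 ± 0.06 (log2, SD, n = 3 each). ENSMUSG00000037015, for which no symbol was matched, had 34.6, 27.4 and 23.8 CPM in WT medium, against 0.364 to 0.399 CPM in WT LPS. It had 28.6 CPM in Scnn1b-Tg 17 medium, 0.380 and 0.299 CPM in the other two medium libraries and 27.7 to 35.5 CPM in Scnn1b-Tg LPS. Each library was thus either between 23.8 and 35.5 CPM or below 1 CPM, and without Scnn1b-Tg 17 its interaction was called by edgeR with an adjusted p of 1.12e-05.

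**Figure D4:**
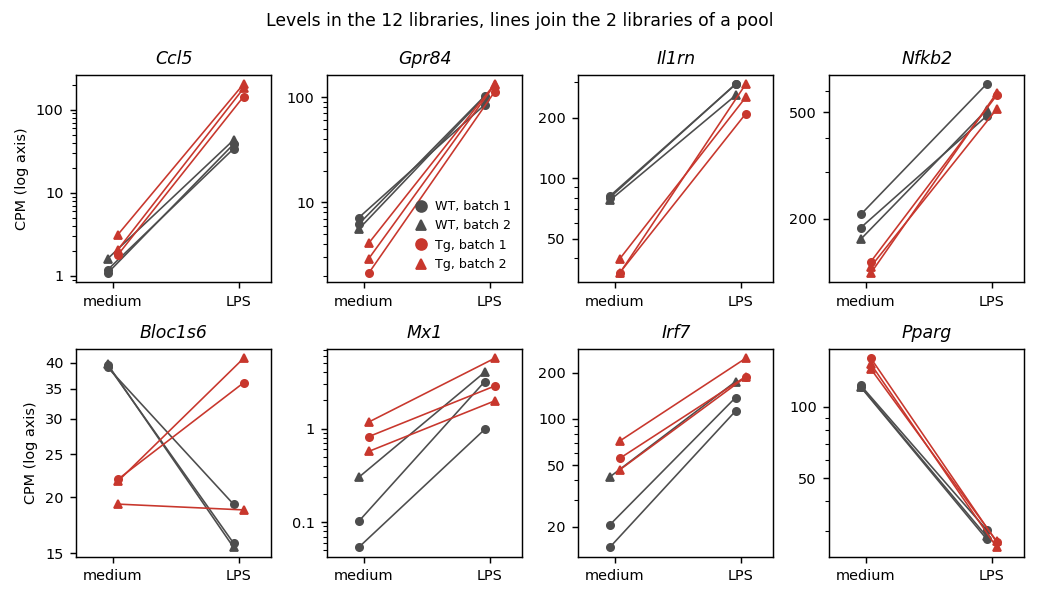
Levels (CPM, log axis, 1 panel per gene) of 8 genes in the 12 libraries, with a line joining the medium and LPS libraries of a pool. Grey is WT and red Scnn1b-Tg, circles are batch 1 and triangles batch 2; Ccl5 separates the genotypes most in LPS, Il1rn and Nfkb2 only in medium, and Mx1 and Irf7 start higher in Scnn1b-Tg.

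Gene lists were then used to describe pathways, with the counts of members at an unadjusted p under 0.05 read against 4.98% (positive) and 4.54% (negative) of all genes, and with the median interaction against 0.003 over all genes. Lists and members were chosen with earlier results of these data known. The counts here and below therefore describe the lists and are no test of them. In the list of the Tlr4 receptor complex and its adaptors, 4 of 21 genes were positive at that level and 0 negative, with a median of 0.06. The count of 4 was 2 without WT 18 or without Scnn1b-Tg 18. Beside Cd14 these were Ikbkg, the regulatory subunit of the IkB kinase, at 0.59 ± 0.13 (SE), whose exons overlap those of G6pdx, Myd88 at 0.23 ± 0.09 and Tlr4 at 1.64 ± 0.67. Tlr4 changed by -0.38, -2.12 and -3.50 in WT 16, 17 and 18 and by -0.22, -0.29 and -0.42 in Scnn1b-Tg (log2 CPM). The WT pools thus ranged widely and WT 16 overlapped the Scnn1b-Tg pools. Ticam1, the adaptor of the interferon arm, had an interaction of 0.01 ± 0.12 (SE).

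NF-kB subunits and the IkB proteins that hold them in the cytosol rose with LPS throughout. All 11 members rose with LPS in WT and all 11 rose in Scnn1b-Tg, where 18% and 21.4% of all genes rose, and 6 of 11 were positive and 1 negative at an unadjusted p under 0.05. The median interaction was 0.46, with 0.45 in batch 1 and 0.32 in batch 2, and the count of positive members at that level was 6 or 7 whichever pool was left out. DESeq2 called 5 of them, Nfkbib, Nfkb2, Nfkbia, Relb and Nfkbie. Nfkb2, the precursor of p52 (ENSMUSG00000025225, chromosome 19, 46304320 to 46312385, plus strand), had 185, 208 and 168 CPM in WT medium, against 139, 133 and 126 CPM in Scnn1b-Tg medium. In LPS it had 484, 638 and 511 CPM in WT, against 579, 514 and 591 CPM in Scnn1b-Tg. The genotypes were apart before stimulation and overlapped after it, with a change of 1.54 ± 0.13 and 2.08 ± 0.14 (log2, SD, n = 3 each). Nfkbia, the main IkB, rose by 1.81 in WT and 2.33 in Scnn1b-Tg in the edgeR fit and Nfkbie by 1.98 and 2.72. Nfkb1 had an interaction of -0.03 ± 0.09 (SE), Rela one of 0.21 ± 0.09, and Rel was the negative member at -0.31 ± 0.13.

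Promoters were read for a form of the kB site, GGGA and TTCC with any 2 bases between them, and for a form of the interferon-stimulated response element, GAAA and GAAA with any 2 bases between them. Both strands were searched and matches may overlap, as those on the strands of the Cxcl promoters do. Sequences of 300 bases around RefSeq start sites on GRCm38.p6, the mm10 build, were matched by symbol to 9732 of the 13729 genes. The kB letters were in 1.47% of all 32851 promoters, in 1.74% of those of the genes tested, and in 3.06% (12 of 392) and 2.78% (2 of 72) of those of raised genes with a larger and a smaller rise in Scnn1b-Tg. They are shown for Nfkb2 and Nfkbia and for Cxcl1, Cxcl2 and Cxcl3, the neutrophil-attracting chemokines described below, on the strand of the gene from 5′ to 3′ and upstream of an annotated start, with the letters in capitals. The Nfkb2 letters shown lie 225 bases upstream of that start and 10 bases downstream of another annotated Nfkb2 start.
Nfkb2, chr19:46305680-46305744, plus: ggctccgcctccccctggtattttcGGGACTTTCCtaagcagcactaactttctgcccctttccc
Nfkbia, chr12:55492648-55492706, minus: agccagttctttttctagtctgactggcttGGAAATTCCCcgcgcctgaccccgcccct
Cxcl1, chr5:90891144-90891214, plus: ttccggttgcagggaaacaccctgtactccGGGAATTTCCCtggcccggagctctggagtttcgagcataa
Cxcl2, chr5:90903772-90903842, plus: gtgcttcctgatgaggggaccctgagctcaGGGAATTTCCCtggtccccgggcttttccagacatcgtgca
Cxcl3, chr5:90785998-90786068, plus: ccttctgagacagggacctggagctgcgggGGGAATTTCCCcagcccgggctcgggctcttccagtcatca

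Among chemokines, 3 of 9 genes of the CC list were positive at an unadjusted p under 0.05 and 0 negative, also with each pool left out. These were Ccl5, Ccl3 at 0.75 ± 0.17 (SE) and Ccl9 at 0.40 ± 0.09, while Ccl4, which shares receptors with Ccl3, was at 0.15 ± 0.27. Ccl3 was 17.8 ± 2.03 CPM in Scnn1b-Tg medium, against 19.1 ± 3.51 CPM in that of WT, and 724 ± 228 against 447 ± 80.8 CPM in LPS (SD, n = 3 each), and its difference lay in LPS. In the CXC list 2 of 9 were positive, Cxcl2 at 0.82 ± 0.19 (SE) and Cxcl1 at 0.56 ± 0.23. Cxcl2 rose from 12.2, 6.27 and 10.5 to 1775, 1334 and 2189 CPM in WT, against from 3.01, 7.80 and 7.19 to 1249, 2168 and 2211 CPM in Scnn1b-Tg, and the levels overlapped at both ends. The median of the CXC list was 0.87 in batch 1 and 0.07 in batch 2, and Cxcl1 itself was 1.02 in batch 1 and -0.02 in batch 2, while Cxcl2 was 1.23 and 0.49. Cxcl3 was at 0.71 ± 0.54 (SE) with overlapping pools. Cxcl10, a target of interferons with both kinds of letters in its promoter, was at 0.77 ± 0.41 (SE).

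Of 10 genes in the panel that the study assayed after LPS, 9 passed the filter on low counts. Of these, 4 were positive at an unadjusted p under 0.05 (Il1b, Tnf, Il6 and Cxcl1) and 0 negative. Without WT 16 or without Scnn1b-Tg 19 there were 2 positive, and 1 was negative without WT 16. Tnf rose from 38.8, 28.8 and 45.3 to 940, 976 and 1215 CPM in WT, against from 16.996, 35.1 and 32.7 to 822, 1371 and 1431 CPM in Scnn1b-Tg, with changes of 4.81 ± 0.25 and 5.44 ± 0.15 (log2, SD, n = 3 each). Il1b, the inflammatory ligand that Il1rn opposes, changed by 5.73 ± 0.19 and 6.43 ± 0.19. Il1a, its relative that is active without cleavage, differed little, at 3.16 ± 0.23 and 3.38 ± 0.08.

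Some assayed genes were too low for a fold. Il6 had 4, 6 and 0 counts in WT medium and 3, 0 and 0 in Scnn1b-Tg medium, which is at the floor of 8 counts, and 178, 130 and 154 counts in WT LPS against 451, 320 and 567 in Scnn1b-Tg LPS. The LPS libraries of the genotypes did not overlap, but the change cannot be sized from a base at the floor. Nos2, the inducible nitric oxide synthase, had 0 counts in all medium libraries and 3 to 30 counts in LPS libraries. Il12b had 0 to 15 counts in medium, with 69, 96 and 79 counts in WT LPS against 293, 148 and 191 in Scnn1b-Tg LPS. Ccl2 had 10 to 49 counts in medium and 20 to 105 in LPS, and Mmp12, a macrophage elastase, had an interaction of 0.34 ± 0.25 (SE) with overlapping pools.

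Enzymes that make antimicrobial metabolites and oxidants had 7 of 17 members positive at an unadjusted p under 0.05 and 0 negative, with a median of 0.34, 0.09 in batch 1 and 0.32 in batch 2. Acod1, which makes itaconate, rose from 69.1, 43.6 and 49.1 to 3581, 3984 and 3584 CPM in WT, against from 29.5, 30.9 and 29.97 to 4274, 3816 and 4581 CPM in Scnn1b-Tg. The genotypes were apart in medium and overlapped in LPS, and the interaction was 0.99 ± 0.20 (SE). Sod2, the mitochondrial superoxide dismutase, was at 0.73 ± 0.12, Arg2, the mitochondrial arginase, at 0.68 ± 0.22, Gch1, which starts synthesis of the cofactor of nitric oxide synthases, at 0.52 ± 0.10, and Ch25h, which makes 25-hydroxycholesterol, at 0.43 ± 0.10. The mean LPS levels of Gch1 and Ch25h were higher in Scnn1b-Tg by 0.18 and 0.69 (log2 CPM).

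Targets of Nrf2, the factor that induces antioxidant genes, had 9 of 25 members positive and 0 negative, and 7 to 9 with each pool left out. The median was 0.16, with 0.16 in batch 1 and 0.11 in batch 2. Hmox1, which degrades heme, rose from 905, 666 and 839 to 2440, 2098 and 2240 CPM in WT, against from 473, 511 and 451 to 2126, 1824 and 1918 CPM in Scnn1b-Tg. Scnn1b-Tg medium was below WT medium without overlap, and the interaction was 0.53 ± 0.11 (SE). Slc7a11, the cystine transporter, was at 0.53 ± 0.11, Gclm, a subunit of the enzyme that starts glutathione synthesis, at 0.50 ± 0.12, and Srxn1, which repairs peroxiredoxins, at 0.39 ± 0.08. DESeq2 called 5 genes of this list, Gclm, Hmox1, Me1, Slc7a11 and Srxn1.

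Proteasome subunits shifted by small and like amounts. LPS raised 23 of 38 in WT and 33 of 38 in Scnn1b-Tg, where 18% and 21.4% of all genes rose. The interaction was above 0 in 36 of 38, against 50.7% of all genes, and 11 were positive and 0 negative at an unadjusted p under 0.05. The median was 0.18, with 0.09 in batch 1 and 0.23 in batch 2. Psmd7, a subunit of the regulatory cap, had 187, 188 and 180 CPM in WT medium, against 154, 143 and 146 CPM in Scnn1b-Tg medium, and it rose to 269, 288 and 261 against 271, 270 and 279 CPM. Here too the genotypes were apart before stimulation only. The count of 11 was 19 without Scnn1b-Tg 17, 5 without Scnn1b-Tg 19 and 7 without WT 17, and DESeq2 called 0 of 38. The members belong to 1 complex and are not independent of each other. In the list of costimulation and maturation genes 6 of 14 were positive and 0 negative, and 3 without Scnn1b-Tg 19. Marcksl1 was at 1.01 ± 0.29 (SE) and Icosl, a ligand for T cells, at 0.68 ± 0.16.

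**Figure D5:**
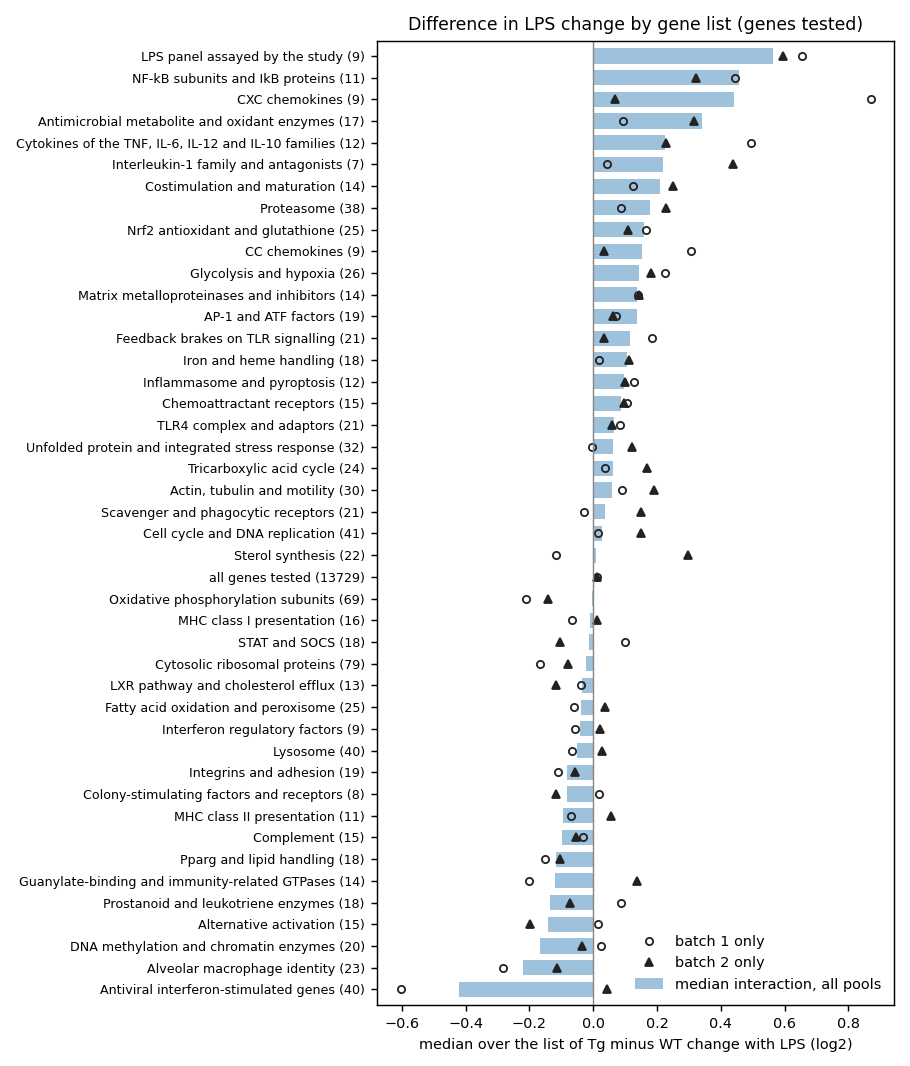
Median over each gene list of the Scnn1b-Tg minus WT difference in LPS change (log2). Bars are the edgeR interaction with all pools, open circles and triangles the differences of per-pool changes within batch 1 and batch 2, and the number of genes tested is in parentheses. The antiviral list reaches -0.42 over all pools but stands at -0.60 in batch 1 and 0.04 in batch 2.

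Antiviral interferon-stimulated genes lay on the other side. LPS raised 38 of 40 in WT and 37 in Scnn1b-Tg, and 13 of 40 were negative and 0 positive at an unadjusted p under 0.05, with a median interaction of -0.42. The median Scnn1b-Tg minus WT level was 0.93 in medium and 0.46 in LPS (log2 CPM), so levels were higher in Scnn1b-Tg at both ends and the gap was narrower after LPS. Within batches the median was -0.60 in batch 1 and 0.04 in batch 2, so the difference was not seen in batch 2. The count of 13 was 30 without WT 18, the sole WT pool of batch 2, and it was 7 without WT 17 and 8 without WT 16. DESeq2 called 4 of the 40, Ifit2, Ifit3b, Ifi27l2a and Slfn5.

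Regulators and single members differed in pattern. Irf7, the regulator that amplifies interferon production (ENSMUSG00000025498, chromosome 7, 141262706 to 141266481, minus strand), had 14.7, 20.5 and 42.0 CPM in WT 16, 17 and 18 medium and 55.6, 46.8 and 72.0 CPM in Scnn1b-Tg medium. In LPS it had 113, 138 and 175 CPM in WT, against 188, 187 and 248 CPM in Scnn1b-Tg. WT 18 was the closest to the Scnn1b-Tg pools at both ends, and the difference in change was -1.08 within batch 1 and -0.17 within batch 2. Irf1, a transcription factor of the interferon regulatory factor family, had 38.3, 38.3 and 42.2 CPM in WT medium, against 38.2, 37.2 and 38.4 CPM in Scnn1b-Tg medium. It rose to 85.97, 74.4 and 95.99 against 109, 106 and 130 CPM. It was a case of equal levels before and separate levels after LPS, with an interaction of 0.49 ± 0.11 (SE). Ifit3, which binds viral RNA complexes, rose by 4.06, 4.33 and 2.67 in WT 16, 17 and 18 and by 2.27, 2.62 and 2.42 in Scnn1b-Tg (log2 CPM), and its interaction was -1.23 ± 0.39 (SE). Oas3, a sensor of double-stranded RNA, rose in WT, by 2.47, 2.59 and 1.15, and had changes of 0.91, 0.56 and 0.61 in the Scnn1b-Tg pools, which did not pass the test. Mx1, a GTPase that blocks influenza viruses, had 3, 5 and 15 counts in WT medium and 48, 30 and 63 in Scnn1b-Tg medium. It had 49, 183 and 212 counts in WT LPS and 162, 104 and 298 in Scnn1b-Tg LPS, so its interaction of -2.24 ± 0.39 (SE) rests on a low base in WT. The members did not all act alike, since Ifit1 was at -0.24 ± 0.36 and Isg15, a ubiquitin-like modifier, at -0.35 ± 0.20.

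The response element letters were in the promoters of 19 of 30 matched genes of the antiviral list (63.3%) and in 3.44% of all promoters. They were in 22.2% (16 of 72) of those of raised genes with a smaller rise in Scnn1b-Tg, 3.32% (13 of 392) of those with a larger rise and 4% of those of all genes tested. These sets can share genes, so the shares are not separate results. Of the sequences shown, Ifit3, Oas3 and Slfn5 had interactions of -1.23, -1.38 and -0.78, while Ifit1 and Isg15 carry the letters with smaller differences. The stretch of Ifit3b is the same, letter for letter, as that of Ifit3, and counts of these copies may be split between them.
Ifit3, chr19:34583343-34583446, plus: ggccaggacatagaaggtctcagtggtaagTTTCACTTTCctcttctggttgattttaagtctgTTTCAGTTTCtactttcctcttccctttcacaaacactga
Oas3, chr5:120777695-120777764, minus: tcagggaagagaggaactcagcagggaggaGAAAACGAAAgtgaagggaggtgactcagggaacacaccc
Slfn5, chr11:82951917-82951986, plus: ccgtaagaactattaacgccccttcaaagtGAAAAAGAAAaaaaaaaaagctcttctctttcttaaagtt
Ifit1, chr19:34640755-34640843, plus: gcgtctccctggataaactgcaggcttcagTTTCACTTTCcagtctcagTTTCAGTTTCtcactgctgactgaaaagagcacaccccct
Isg15, chr4:156200845-156200926, minus: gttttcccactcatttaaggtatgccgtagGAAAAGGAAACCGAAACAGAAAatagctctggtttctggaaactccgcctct

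Genes of AM identity, most of which LPS lowered in both genotypes, had more negative changes in Scnn1b-Tg by value. The median Scnn1b-Tg minus WT level of the list was 0.26 in medium and 0.03 in LPS (log2 CPM). The difference in change thus lay mainly at the medium end. LPS raised 4 members in WT and 4 in Scnn1b-Tg. LPS lowered 16 of 23 in WT and 17 in Scnn1b-Tg, where 18.6% and 20.8% of all genes fell, and 10 of 23 were negative and 2 positive at an unadjusted p under 0.05. The median was -0.22, with -0.28 in batch 1 and -0.11 in batch 2, and the count of 10 was 4 without Scnn1b-Tg 18, 5 without WT 16, and 6 without WT 17 or Scnn1b-Tg 17. Pparg, the nuclear receptor that sets AM identity (ENSMUSG00000000440, chromosome 6, 115360951 to 115490399, plus strand), had 123, 121 and 122 CPM in WT medium, against 160, 144 and 151 CPM in Scnn1b-Tg medium. In LPS it fell to 30.4, 27.8 and 28.5 CPM in WT, against to 27.0, 27.2 and 25.6 CPM in Scnn1b-Tg. Scnn1b-Tg was higher in medium without overlap. In LPS it lay just below WT, at 27.2 against 27.8 CPM for the nearest libraries. Without TMM scaling the LPS libraries overlapped, at 26.3 to 29.2 CPM in WT and 24.4 to 26.9 CPM in Scnn1b-Tg. The interaction was -0.43 ± 0.09 (SE), with an adjusted p of 0.263 by edgeR and 0.0204 by DESeq2. Siglecf, used to gate AMs, was level in medium, at 115 ± 5.13 CPM in WT, against 118 ± 13.4 CPM in Scnn1b-Tg, and in LPS it was at 11.1 ± 2.4 and 6.47 ± 1.51 CPM (SD, n = 3 each). The positive members were Il18 at 0.35 and Marco, a scavenger receptor for bacteria, which rose with LPS by 0.99 ± 0.16 in WT and 1.62 ± 0.11 in Scnn1b-Tg.

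A list of feedback genes of Tlr signalling, most of them inhibitors, was mixed, with 5 of 21 positive and 2 negative at an unadjusted p under 0.05. Beside Il1rn, Acod1 and Tnip3, and Gpr84, which is not an inhibitor but was on the list, Dusp1, a phosphatase that inactivates MAP kinases, was at 0.40 ± 0.10 (SE). Dusp5, a phosphatase of ERK, was at -0.65 ± 0.17 and Zfp36, which destabilises cytokine mRNA, at -0.39 ± 0.11, and LPS lowered both in Scnn1b-Tg, while neither passed the test in WT. Scavenger and phagocytic receptors had 6 of 21 positive and 2 negative. Clec4e, a receptor for mycobacterial glycolipid, was at 0.87, and the negative members were Mertk, at -0.33, and Axl, at -0.24, kinases for the uptake of dying cells. The count of 2 negative members was 0 without WT 17 or without Scnn1b-Tg 18, and that of 6 positive was 4 to 7. Before TMM scaling, Mertk had 163 to 184 CPM in WT medium and 187 to 243 CPM in Scnn1b-Tg medium. In LPS it overlapped, at 31.9 to 44.9 CPM in WT and 29.1 to 44.3 CPM in Scnn1b-Tg. The interleukin-1 family had 3 of 7 positive (Il1rn, Il1b and Il18), and chemoattractant receptors 4 of 15 positive and 2 negative. DNA methylation and chromatin enzymes had 4 of 20 negative and 0 positive, with Kdm6b, a histone H3 demethylase, at -0.73, and the count was 2 without WT 17 or without Scnn1b-Tg 18. Several lists had no member at that level. Cytosolic ribosomal proteins had 0 of 79 at that level in either direction, STAT and SOCS genes 0 of 18, MHC class II genes 0 of 11 and colony-stimulating factors with their receptors 0 of 8. Oxidative phosphorylation subunits had 3 of 69 positive and 0 negative, with a median of -0.01, and 32 of 69 interactions above 0, a number that was 17 without WT 17, 51 without WT 18, 61 without Scnn1b-Tg 17 and 20 without Scnn1b-Tg 19. Lysosomal genes had 3 of 40 positive and 2 negative. In the MHC class II list the median Scnn1b-Tg minus WT level was 0.56 in medium and 0.49 in LPS (log2 CPM), and the median interaction was -0.09.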

How the data were processed

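RNA of airway macrophages was sequenced as read pairs of 125 bp from low-input full-length cDNA libraries. The authors deposited estimated counts for 20551 genes, whole numbers derived from StringTie coverage after unstranded HISAT2 alignment to mm10 with GENCODE annotation; judging by the spacing of low values, 1 read pair may be worth about 5 of these counts, in which case depth is smaller than the totals of 48.2 to 60.9 M. Counts of up to 8 in all libraries of a group were taken as the floor. Genes were filtered by filterByExpr (minimum count 10, total 15; 13729 left) and scaled by TMM. edgeR 4.0.16 (R 4.3.3) fitted a quasi-likelihood model with 6 pool terms and an LPS effect per genotype to all 12 libraries (4 residual degrees of freedom); the interaction is the Scnn1b-Tg minus the WT effect. All tests were two-sided with Benjamini-Hochberg adjustment over all genes and a threshold of 0.05. The model was tested on simulated data. Changes per pool were taken on log2 CPM, to which a prior count of 2 was added.

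Medium and LPS libraries of a pool share cells, and their deviations from the group means correlated (0.19 to 0.34 for WT, 0.14 to 0.33 for Scnn1b-Tg), so the pool number pairs them. A pool lies in 1 batch, so the batch term that the study used is contained in the pool terms. Named genes were, per direction, the 12 of lowest p with at least 5 CPM in a group and no overlap of pools, the 2 of lowest p and at least 1 CPM in each of 43 lists, opposite LPS calls and genes the study assayed, 101 in all. Members and lists were chosen with earlier results of these data known. Symbols and positions came from GENCODE M21 (20132 of 20551 IDs) and promoters from RefSeq (GRCm38.p6). Alternatives were DESeq2 1.42.0, limma 3.58.1, other scalings, filters and prior counts, counts divided by 5, fits without pool terms or with LPS by batch, and leaving out each pool. P-values measure the spread between these pools.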

Additional observations from a re-analysis of the deposited data

Results flagged for a closer look

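In 12 of the 101 named genes, and in 162 of all 13729 genes (1.18%), all 3 WT pools moved one way with LPS and all 3 Scnn1b-Tg pools the other way. Most named genes were chosen for a low interaction p or for opposite LPS calls. Their larger share follows from that choice and is not a result. The difference was tested by the edgeR interaction, which with all pools did not pass after adjustment for any gene. Of the 12, DESeq2 called ENSMUSG00000037015, Kctd20, Spata6, Arfip2 and Gvin1 and not the others. Its adjusted p values were 4.5e-09, 0.00015, 0.00064, 0.0037 and 0.023 in that order. The interactions were positive for genes that went down in WT and up in Scnn1b-Tg, at 0.62 for Arfip2, 0.89 for Bub1, a checkpoint kinase of mitosis, 0.43 for Fbxo9, 0.24 for Pdhb, a subunit of pyruvate dehydrogenase, and 0.23 for Sucla2, a subunit of succinyl-CoA ligase. ENSMUSG00000037015 had the widest one at 10.09, and its WT LPS and some Scnn1b-Tg medium libraries were below 1 CPM. They were negative for genes that went up in WT and down in Scnn1b-Tg, at -0.97 for C3ar1, the receptor of the complement peptide C3a, -0.49 for Gapdh, -0.81 for Gvin1, an interferon-inducible GTPase, -0.88 for Kctd20, -0.40 for Selplg, the ligand of P-selectin, and -0.86 for Spata6. The LPS effect passed the test in both genotypes for Arfip2, Fbxo9 and ENSMUSG00000037015, and in neither for C3ar1, Pdhb, Selplg and Sucla2. Exons of Gapdh and Kctd20 overlap those of other genes, so their counts are uncertain.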

How the results depend on the processing

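The count of interaction genes was 0 under every alternative except DESeq2, which called 167, and leaving out single pools, which gave 0 to 2. Without Scnn1b-Tg 17 and without Scnn1b-Tg 18 there were 2 each; the cause was not tested. In the fit without the pool block, as the study's group and batch design, 795 genes had an unadjusted p under 0.05 in place of 1307, and 0 were called; the blocked and unblocked fits changed no call of the interaction. The difference in slope of 0.113 ranged from 0.0918 to 0.129 with a pool left out and was 0.0757 over genes called in WT and 0.146 over genes called in Scnn1b-Tg. The share of LPS genes with a larger response in Scnn1b-Tg, 66.3%, ranged from 62.1 to 69.7% with a pool left out, and was 63.6% within batch 1, 63.2% within batch 2, 69.2% over genes called in both genotypes, 59.2% over those called in WT and 77.0% over those called in Scnn1b-Tg. Of the named genes, the interaction changed sign in Ccl2 without Scnn1b-Tg 19 (-0.19, within -0.19 to 1.10 with each pool left out) and in Il12b without WT 17 (0.031, within -5.31 to 0.031), both near the floor in medium. With 3 pools a genotype and 4 residual degrees of freedom, an unadjusted p that misses the threshold does not show an equal response.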
